A study of Mus musculus with 8 samples.

Results

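The receptors and the adaptor that place B cells in lymphoid tissue were followed in induced germinal center B cells (iGBs) with and without Prmt5, the arginine methyltransferase that makes symmetric dimethylarginine. The genes were taken by symbol from a list of 10 with a role in B cell positioning, namely the chemokine receptors Cxcr4, Cxcr5, Ccr6 and Ccr7, the sphingosine-1-phosphate receptors S1pr1, S1pr2 and S1pr4, the oxysterol receptor Gpr183, P2ry8 and the adaptor Gcsam. Of these, 9 were found among the 39017 genes of the deposited table, and all 9 passed the filter on low values. P2ry8, a receptor of human B cells for which no mouse gene is known, matched no symbol in the table. RNA was from splenic B cells of C57BL6/J mice, depleted of CD43+ cells, grown for 4 days on irradiated 40LB cells, fibroblasts that express BAFF and CD40L, in medium with IL-4 at 1 ng per mL, and parted from that feeder layer by elutriation. Both groups carried Cγ1-cre, a Cre recombinase that becomes active once B cells are activated. The 4 Prmt5-null libraries, labelled after their mice as PRMT5-10617, PRMT5-10618, PRMT5-10770 and PRMT5-10771, came from Prmt5 F/F Cγ1-cre animals, and the 4 control libraries, CTRL-10650 and CTRL-10370, then CTRL-10596 and CTRL-10597, carried Cγ1-cre alone. Values of single libraries are given in these orders throughout. They are normalized counts, read counts on exons divided by the size factor of the library, which do not correct for gene length.

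B cells reach their place in spleen and lymph nodes by reading gradients of chemokines and lipids through receptors coupled to G proteins. Cxcr5 draws them into follicles, Ccr7 draws them toward the T zone, Gpr183 holds them at the follicle edge, and S1pr1 lets them leave for blood and lymph. Inside the germinal center, Cxcr4 places cells in the dark zone, whereas S1pr2, acting through Gα13, keeps them clustered at the center of the follicle, and Gcsam is a signaling adaptor of germinal center B cells that restrains their motility. A culture on a flat feeder layer has none of this tissue order, so the data give the RNA of these genes and say nothing of where cells would go.

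Cells and controls were checked first. Prmt5 had 1538 ± 436 normalized counts in Prmt5-null and 11774 ± 908 in control libraries (SD, n = 4 mice each), a log2 fold change of -2.98 (adjusted p = 6.14e-06 from limma). The libraries held between 36731721 and 50366174 reads on genes. Of 10 B cell markers, Ms4a1 had a mean of at least 43984 normalized counts in each genotype, Cd79a was called lower (log2 fold change -0.74, adjusted p = 0.000327 from limma) and Cr2 higher (1.03, adjusted p = 0.00137 from limma) without Prmt5. Of 8 germinal center B cell markers 4 were above and 4 below 0 on the log2 fold change scale, and Fas passed 0.05, at 7295 against 5229 normalized counts with no overlap (0.47, adjusted p = 0.00504 from limma). Of 6 plasma cell markers, 3 were above and 3 below 0 on the log2 fold change scale. Xbp1 (-0.45, adjusted p = 0.0305 from limma) and Prdm1 (-0.48, adjusted p = 0.0428 from limma) passed 0.05 as lower, both short of 1.5-fold. Both overlapped between the genotypes, whereas the 1 plasma cell marker with no overlap was higher in Prmt5-null, short of an adjusted p of 0.05. The summed level of the 6 was 37696 to 45364 normalized counts in Prmt5-null and 41183 to 58381 in control libraries. Among 9 T cell markers Cd3e was at 0 in all 8 libraries and Cd3d at 3.57 or less, whereas Lck was called lower (-0.94, adjusted p = 0.000852 from limma), and their summed level, mostly Thy1, was 2202 to 3121 normalized counts in Prmt5-null and 2295 to 3011 in control libraries. Of 8 myeloid markers 3 were tested, of which Adgre1 was called higher without Prmt5, and the summed level of all 8 was at most 324 normalized counts in any library. Fibroblast genes were present and higher without Prmt5. Of the 16 tested, 4 were called higher, against 3.49% of all genes, and none lower, and all 16 had a log2 fold change above 0. The summed level of all 18 listed ran from 10820 to 20246 normalized counts in Prmt5-null and from 7443 to 12992 in control libraries. Thy1 stands in both this list and that of T cell markers, so this sum is not made of fibroblast markers alone. The part of these marker differences in the results below, the falls of Gcsam and S1pr2 included, was not tested, except where a value with the summed fibroblast level in the model is given. In such bulk RNA, fewer cells of a type and less RNA per cell cannot be told apart.

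For 3 genes the sequence in front of their start is shown, since these were the genes that passed an adjusted p of 0.05 between the genotypes, Gcsam and S1pr2 lower and Cxcr4 higher in Prmt5-null iGBs. The sequences are RefSeq's on GRCm38.p6, 250 bases for S1pr2 and Cxcr4 and 190 for Gcsam, for which the 60 bases next to the RefSeq start were left off because GENCODE places them within the gene. Capitals mark matches, on either strand, to the GC box (GGGCGG), the cyclic AMP response element (TGACGTCA), the TATA box (TATAAA), the CCAAT box (CCAAT) or the octamer (ATGCAAAT).
Gcsam, chr16:45610190-45610379, plus strand: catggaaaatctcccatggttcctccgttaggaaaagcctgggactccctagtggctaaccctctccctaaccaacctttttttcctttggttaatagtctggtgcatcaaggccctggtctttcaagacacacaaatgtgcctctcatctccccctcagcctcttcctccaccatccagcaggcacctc
S1pr2, chr9:20976794-20977043, minus strand: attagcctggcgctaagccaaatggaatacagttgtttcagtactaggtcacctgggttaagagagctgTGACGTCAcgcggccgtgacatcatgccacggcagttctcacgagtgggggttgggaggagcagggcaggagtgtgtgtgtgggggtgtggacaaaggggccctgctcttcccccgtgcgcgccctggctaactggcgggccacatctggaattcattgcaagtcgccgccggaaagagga
Cxcr4, chr1:128592300-128592549, minus strand: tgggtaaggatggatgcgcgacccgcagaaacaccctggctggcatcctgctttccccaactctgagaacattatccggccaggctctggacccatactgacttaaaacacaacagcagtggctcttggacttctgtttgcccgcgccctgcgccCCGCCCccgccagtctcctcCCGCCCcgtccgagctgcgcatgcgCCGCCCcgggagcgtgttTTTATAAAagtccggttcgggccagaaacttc
The 3 promoters were unlike each other in these letters. Cxcr4 had 3 GC boxes and a run of capitals in which the TATA box occurs 2 times, once on each strand with the matches overlapping, beginning 32 and 30 bases before the start. S1pr2 had 1 cyclic AMP response element, which ended 174 bases before the start, and Gcsam had none of the 5 motifs in its whole 250-base window. Among all 32851 promoter windows of this length, 32.7% held a GC box, 12.4% a TATA box, 33.8% a CCAAT box, 1.55% a cyclic AMP response element and 1.60% an octamer. The motifs were picked after the sequences were seen, and a match describes the letters and is no evidence of a bound factor.

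Gcsam and S1pr2, the pair of genes that restrain or confine germinal center B cells, were the only members called between the genotypes, by the rule that limma's adjusted p be under 0.05 and the fold at least 1.5, and both were lower in Prmt5-null iGBs. That is 2 of 9 members called, against 6.48% of all 16250 genes tested by limma, with 2 called lower against 2.99% and 0 called higher against 3.49% (0 also in edgeR and DESeq2, and 2 at an unadjusted p under 0.05 in limma, Cxcr4 and Ccr7). No share of all genes at an unadjusted p is given, so counts at that cut, here and below, are no result about a list. Leaving out the fold threshold added Cxcr4, so that 3 of 9 members passed an adjusted p of 0.05 against 13.8% of all genes, 1 higher and 2 lower. The libraries of the genotypes did not overlap for 4 members, Cxcr4 higher and Gcsam, S1pr2 and S1pr4 lower, where 19.8% of all genes had no overlap (9.67% higher and 10.2% lower). The median log2 fold change of the members was -0.10, against 0.00 for all genes, and their median absolute log2 fold change was 0.18 against 0.19 for all genes. The median size of change of the members was thus that of the table as a whole, with the large differences in a pair of genes.

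**Figure D1:**
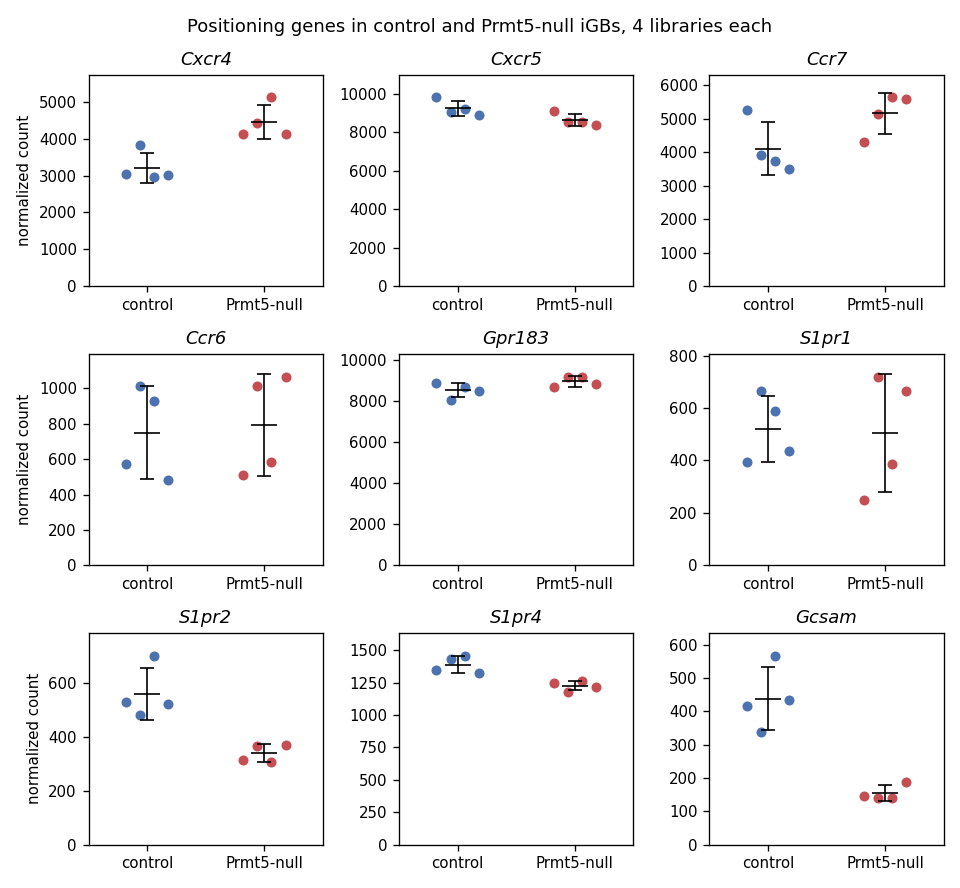
Normalized count (y axis, linear, from 0) of each of the 9 genes in the 4 control (blue) and 4 Prmt5-null (red) libraries, 1 point a library, with a bar at the mean and whiskers of 1 SD. The red points of Gcsam, S1pr2 and S1pr4 all lie below the blue points and those of Cxcr4 all lie above, whereas Ccr6 and S1pr1 each split into high and low libraries within both genotypes.

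Gcsam, on chromosome 16 from 45610380 to 45622867 of GRCm38, changed most. It had 146, 140, 141 and 189 normalized counts in the Prmt5-null libraries and 415, 337, 566 and 434 in the control libraries. The highest Prmt5-null library, PRMT5-10771, was still well under the lowest control library, CTRL-10370. The means were 154 ± 23.4 and 438 ± 95.2 (SD, n = 4), a ratio of 0.351, or -1.49 as log2 fold change (standard error (SE) 0.17, 95% interval -1.86 to -1.12, adjusted p = 0.000267 from limma). Over 22 alternative analyses, those without 1 library and that with the fibroblast level included, Gcsam was called each time, with a log2 fold change from -1.61 to -1.36 and a highest adjusted p of 0.0080.

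S1pr2, the sphingosine-1-phosphate receptor that inhibits migration, lies on chromosome 9 from 20962361 to 20976781 of GRCm38. Its normalized counts were 315, 368, 305 and 368 in Prmt5-null and 531, 481, 701 and 523 in control iGBs. All Prmt5-null libraries were lower than all control libraries, and the control libraries were the more widely spread, with CTRL-10596 the highest. The level fell from 559 ± 97.2 to 339 ± 33.6 (SD, n = 4), a ratio of 0.607, or -0.71 as log2 fold change (SE 0.13, 95% interval -1.0 to -0.42, adjusted p = 0.00486 from limma). With the summed fibroblast level as a covariate, which is itself higher without Prmt5, the log2 fold change was -0.60 with an SE of 0.19, and the call was lost (adjusted p = 0.102 from limma). In the other 21 alternatives S1pr2 stayed called.

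The other sphingosine-1-phosphate receptors among the members differed less. S1pr3, which is not a member, had a log2 fold change near that of S1pr2, at -0.64, and is described with the other receptors below. S1pr4, the receptor of this family largely confined to blood cells, lies on chromosome 10 from 81497747 to 81500132 and had 1248, 1182, 1261 and 1213 normalized counts in Prmt5-null and 1345, 1434, 1458 and 1326 in control libraries. The libraries were tightly grouped in both genotypes and did not overlap, with Prmt5-null the lower. The means of 1226 ± 35.4 and 1391 ± 64.7 (SD, n = 4) gave a log2 fold change of -0.18 (95% interval -0.35 to -0.02), which did not pass adjustment over all genes (adjusted p = 0.135 from limma). Taken as a single gene, its exact two-sided permutation p was 0.0286, the smallest that 4 against 4 libraries allow.

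S1pr1, the egress receptor, on chromosome 3 from 115710433 to 115715072, varied more between mice than between genotypes. It had 249, 720, 385 and 664 normalized counts in Prmt5-null and 393, 665, 587 and 437 in control libraries. The genotypes overlapped over nearly their whole range, and both the lowest and the highest library were Prmt5-null, a 2.89-fold span. The means were 505 ± 225 and 521 ± 127 (SD, n = 4), a log2 fold change of -0.14 with a 95% interval from -0.78 to 0.51 (adjusted p = 0.801 from limma). The interval takes in falls of more than 1.5-fold, so a fall of that size lies within the error of this comparison.

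Ccr6, the receptor for Ccl20, found on chromosome 17 from 8236043 to 8257141, had the same kind of spread. It had 510, 1014, 584 and 1066 normalized counts in Prmt5-null and 573, 1015, 931 and 481 in control libraries. In each genotype 2 libraries were high and 2 low, with no library between. The means of 794 ± 287 and 750 ± 263 (SD, n = 4) gave a log2 fold change of 0.08 (95% interval -0.53 to 0.69, adjusted p = 0.890 from limma), whose sign turned when a single library was left out, be it PRMT5-10618 (-0.07) or PRMT5-10771 (-0.09), or CTRL-10650 (-0.03) or CTRL-10597 (-0.11). For S1pr1 the sign turned without PRMT5-10617 (0.16).

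The same libraries were high for both genes. PRMT5-10618 and PRMT5-10771 and CTRL-10370 and CTRL-10596 held the 4 highest values of Ccr6 and also of S1pr1. These are not the sets into which the libraries fell along the second principal component of all genes, which put PRMT5-10617 and PRMT5-10618 and CTRL-10596 and CTRL-10597 on one side. The summed fibroblast level was 20246, 10820, 15761 and 14075 normalized counts in the Prmt5-null and 12992, 7443, 8571 and 10100 in the control libraries. Within each genotype the order of the libraries by S1pr1 was exactly the reverse of their order by fibroblast level, and the 2 Ccr6-high libraries of each genotype were the 2 with the lower fibroblast level. With that level as a covariate, chosen after the data were seen, the log2 fold change of S1pr1 was 0.76 (adjusted p = 0.0776) and that of Ccr6 0.85 (adjusted p = 0.0907), neither past 0.05 in limma. The fitted difference of both receptors thus moved with this choice, from near 0 to a higher value in Prmt5-null iGBs, and neither was called either way. No correlation is given, since the libraries form 2 separate groups for Ccr6. CD69, a surface protein that holds S1PR1 inside the cell, was picked for its tie to S1pr1 after its values were seen, and its gene Cd69 had 2565, 6849, 4305 and 4480 normalized counts in Prmt5-null and 4408, 8876, 5873 and 6394 in control libraries (log2 fold change -0.53, adjusted p = 0.201 from limma). Klf2, the transcription factor that drives S1pr1 and was picked the same way, stood at 1473 ± 192 against 1378 ± 76.3 normalized counts (SD, n = 4, log2 fold change 0.09, adjusted p = 0.595 from limma).

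**Figure D2:**
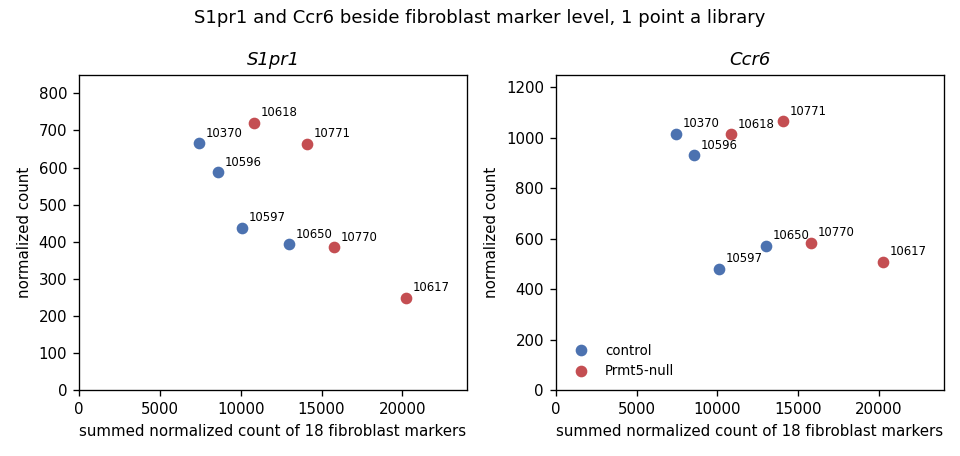
Normalized count of S1pr1 (left) and Ccr6 (right) on the y axes against the summed normalized count of 18 fibroblast markers on the x axes, 1 point a library, labelled with its mouse number, for control (blue) and Prmt5-null (red). Libraries with a higher sum of these markers had less S1pr1 within each genotype, and Prmt5-null libraries lay further right at a like S1pr1 level, as with PRMT5-10771 (14075, 664) beside CTRL-10370 (7443, 665).

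Cxcr4, the dark zone receptor for Cxcl12, on chromosome 1 from 128588199 to 128592293, was, of the 4 chemokine receptors among the members, the one with a higher level in every Prmt5-null than in any control library. Its normalized counts were 4118, 4443, 5124 and 4132 in Prmt5-null and 3056, 3821, 2951 and 3018 in control libraries. CTRL-10370 stood apart from the other 3 controls but was still below the lowest Prmt5-null library. The means of 4454 ± 471 and 3212 ± 409 (SD, n = 4) differed 1.39-fold, a log2 fold change of 0.47 (SE 0.10, 95% interval 0.25 to 0.70, adjusted p = 0.0095 from limma), so Cxcr4 passed the test but not the 1.5-fold threshold. Its adjusted p stayed below 0.05 in all 22 alternatives, with 0.0437 as the highest and a log2 fold change between 0.40 and 0.58.

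Ccr7, which binds Ccl19 and Ccl21, lies on chromosome 11 from 99144196 to 99155077. It had 4317, 5132, 5639 and 5598 normalized counts in Prmt5-null and 5263, 3920, 3728 and 3511 in control libraries. CTRL-10650 was as high as the Prmt5-null libraries, and PRMT5-10617 was the lowest of its group, so the genotypes overlapped. The means were 5172 ± 614 and 4105 ± 789 (SD, n = 4), a log2 fold change of 0.34 (95% interval 0.07 to 0.62, adjusted p = 0.0969 from limma), and the exact two-sided permutation p for this gene alone was 0.0857. Without CTRL-10650 the log2 fold change was 0.47 (adjusted p = 0.0183 from limma). With all 8 libraries and the split along the second principal component as a block, chosen after the data were seen, the adjusted p was 0.0294 from limma, and over the 18 placements of the experiments it ran from 0.0294 to 0.134. The log2 fold change stayed under the 1.5-fold threshold in each.

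Cxcr5 and Gpr183 were both abundant and nearly level. Cxcr5, the follicle homing receptor, on chromosome 9 from 44511787 to 44561877, had 9075, 8500, 8520 and 8366 normalized counts in Prmt5-null and 9797, 9046, 9195 and 8862 in control libraries, with a small overlap between the groups. Its log2 fold change was -0.10 (95% interval -0.24 to 0.05, adjusted p = 0.362 from limma). Its exons overlap those of Bcl9l on the opposite strand, and since the strand setting of the counting is not given in the sources used here, its reads and those of Bcl9l may be mixed. It was the only member whose exons overlap another gene. Gpr183, on chromosome 14 from 121952551 to 121965195, had 8655, 9158, 9175 and 8810 normalized counts in Prmt5-null and 8844, 8044, 8696 and 8482 in control libraries. Again the groups overlapped, and the log2 fold change was 0.07 (95% interval -0.07 to 0.22, adjusted p = 0.505 from limma). For these 2 genes the intervals leave out changes of 1.5-fold in either direction.

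**Figure D3:**
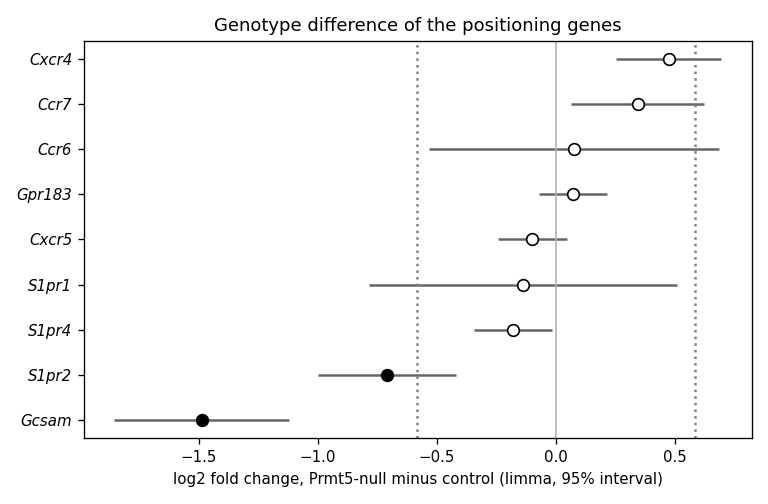
Log2 fold change (x axis, Prmt5-null minus control) of the 9 genes with 95% intervals from limma as lines, filled points for the called genes and open points for the others, and dotted lines at a 1.5-fold change either way. Gcsam (-1.49) and S1pr2 (-0.71) are the filled points on the left, Cxcr4 (0.47) is furthest right, and the intervals of Ccr6 and S1pr1 are the widest.

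Levels were compared between genes as normalized counts per kb of annotated exon. In control iGBs the highest were Gpr183 at 2950 ± 121, Cxcr5 at 2769 ± 122, Ccr7 at 2076 ± 399 and Cxcr4 at 1776 ± 226 normalized counts per kb (SD, n = 4). The ranges of neighbors in this order overlapped over the 4 libraries. Within single libraries Gpr183 was above Cxcr5 in 4 of 4 and Cxcr5 above Ccr7 in 4 of 4, whereas Ccr7 was above Cxcr4 in 3 of 4. S1pr4 followed at 583 ± 27.1, and every Cxcr4 library was above every S1pr4 library, with a ratio of means of 3.05. Ccr6 at 323 ± 113 lay below S1pr4 without overlap, by 1.80-fold, then came S1pr1 at 171 ± 41.7 and Gcsam at 128 ± 27.8, each overlapping the one before in range but below it in 4 of 4 libraries. S1pr2 was the lowest at 70.1 ± 12.2, under every Gcsam library. The 2 genes called between the genotypes were thus the 2 with the lowest levels per kb. This place of S1pr2 rests on its annotated length, since its control mean in plain normalized counts, 559, was above that of S1pr1, 521. In Prmt5-null iGBs Ccr7 at 2615 ± 311 and Cxcr5 at 2586 ± 94.3 changed places, a difference far smaller than their spread. With the longest transcript of each gene in place of all its exons, 7 of 9 genes kept their rank in control iGBs, as Cxcr5 passed Gpr183 in all 4 libraries.

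**Figure D4:**
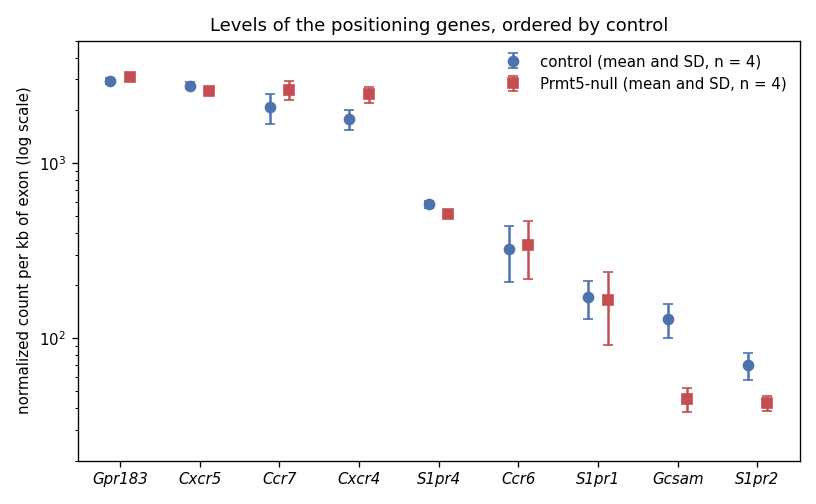
Normalized counts per kb of annotated exon (y axis, log scale) of the 9 genes in order of their control level, as mean and SD of 4 control (blue circles) and 4 Prmt5-null (red squares) libraries. Gpr183, Cxcr5, Ccr7 and Cxcr4 form an upper group, and Gcsam and S1pr2 show the clearest gap between the genotypes at the low end.

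The genes that moved most like the called members over all 8 libraries were looked up by Pearson's r on log2(normalized count + 1) among 13300 genes with a mean of at least 50. For Gcsam they were Preb (r = 0.992), Nes (0.985) and Spcs2 (0.981), of which Preb and Spcs2 act at the endoplasmic reticulum and Nes encodes an intermediate filament. For S1pr2 they were Aldh3a2 (0.986), Kcnab2 (0.977) and Vars2 (0.976), which encode an aldehyde dehydrogenase, a potassium channel subunit and the mitochondrial valyl-tRNA synthetase. These are descriptions over 8 points that share the split by genotype.

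Of the other chemoattractant and lipid receptors, 28 were listed and 20 tested, and 2 were called higher and 1 lower, against 3.49% and 2.99% of all genes. Cxcr3, the receptor for Cxcl9 and Cxcl10, rose from a low level, with 72.2, 77.6, 58.4 and 80.3 normalized counts in Prmt5-null and 21.5, 16, 30.5 and 19.0 in control libraries. The genotypes were far apart for Cxcr3, at a log2 fold change of 1.71 (SE 0.25, adjusted p = 0.00105 from limma). Ccr1, a receptor for inflammatory chemokines such as Ccl3 and Ccl5, rose from 13.2 ± 2.79 to 41.8 ± 12.7 normalized counts (SD, n = 4, log2 fold change 1.56, adjusted p = 0.00622 from limma), and both its means are below 50. S1pr3, another sphingosine-1-phosphate receptor, was lower in every Prmt5-null than in any control library and fell from 1326 ± 176 to 849 ± 83.7 normalized counts (SD, n = 4, log2 fold change -0.64, adjusted p = 0.00329 from limma). The median log2 fold change of the 20 was 0.19, with 12 above and 8 below 0. At a mean above 50, only 1 of the 3 was called, since Cxcr3 and Ccr1 were not tested there, and S1pr3 was not called without CTRL-10596.

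Ligands, and enzymes that make or clear them, were listed as 19 genes, of which 11 were tested. Of the 11, 1 was called higher and 0 lower, against 3.49% and 2.99% of all genes. With a single gene called, this count is no result about the list. Plpp3, a cell surface phosphatase that breaks down sphingosine-1-phosphate and other lipid phosphates, was the one called, higher at 71.3 ± 11 against 40.8 ± 9.94 normalized counts (SD, n = 4, log2 fold change 0.81, adjusted p = 0.0341 from limma). The call was lost in 6 of the 8 analyses that left out a library, all but those without PRMT5-10618 or CTRL-10370, and with the fibroblast level as a covariate. Cxcl12, the Cxcr4 ligand that stromal cells make, had 117, 36.8, 171 and 127 normalized counts in Prmt5-null and 149, 60.6, 53.8 and 45.0 in control libraries, overlapping widely (log2 fold change 0.52, adjusted p = 0.492 from limma). It was picked for its tie to Cxcr4 after its values were seen.

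Downstream of the receptors, 41 genes of G protein signaling, receptor desensitization and motility were listed and 39 tested. Called lower were Pik3cg, the catalytic subunit of the phosphoinositide 3-kinase that Gβγ activates, and Rgs2, which speeds GTP hydrolysis by Gα subunits, and no gene was called higher in limma, edgeR or DESeq2 (5 were higher at an unadjusted p under 0.05 in limma). These 2 of 39 are a share near the 6.48% of all genes called, so this count is no result about the list. At an unadjusted p under 0.05 in limma, 14 of the 39 were lower, with no share of all genes at that cut to set beside it. The genotypes did not overlap for 11 lower and 2 higher genes of the 39, against 10.2% and 9.67% of all genes. The list as a whole was not tested. Pik3cg had 191, 239, 74.7 and 197 normalized counts in Prmt5-null and 331, 251, 431 and 379 in control libraries. PRMT5-10770 was the lowest library, and PRMT5-10618 came close to CTRL-10370 without overlap (log2 fold change -1.08, SE 0.31, adjusted p = 0.0386 from limma). Rgs2 had 203, 390, 299 and 314 normalized counts in Prmt5-null and 447, 711, 522 and 406 in control libraries, also without overlap (log2 fold change -0.79, SE 0.21, adjusted p = 0.0266 from limma). Both calls were lost with the fibroblast level as a covariate, in limma without a trend and without PRMT5-10617, PRMT5-10771 or CTRL-10596, that of Pik3cg also without CTRL-10650 or CTRL-10597, and that of Rgs2 without CTRL-10370. At an adjusted p of 0.05 with no fold threshold, 2 genes of this list were higher and 7 lower, against 6.51% and 7.33% of all genes. Among those 9, picked as examples after their values were seen, Rac2, a GTPase of hematopoietic cells that acts on the actin cytoskeleton, fell from 21018 ± 1179 to 15922 ± 1247 normalized counts (SD, n = 4, log2 fold change -0.40, adjusted p = 0.0067 from limma). The receptor kinases Grk5 (0.44, adjusted p = 0.0258) and Grk2 (0.24, adjusted p = 0.0386), which desensitize G protein-coupled receptors, were the 2 that rose on the log2 scale in limma. The median log2 fold change of the 39 was -0.14, with 26 below and 13 above 0.

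Of 12 known regulators of these receptors, all tested, none was called by limma, edgeR or DESeq2, and 2 had an unadjusted p under 0.05 in limma. The 3 with the highest level, Mef2c (-0.01, adjusted p = 0.934), Irf8 (-0.01, adjusted p = 0.950) and Nfkb2 (0.14, adjusted p = 0.302), had log2 fold changes close to 0 in limma. Mef2b, a transcription factor of germinal center B cells, was the 1 of the 12 that passed 0.05 without the fold threshold, at 3218 against 2249 normalized counts (log2 fold change 0.51, adjusted p = 0.0282 from limma). It falls outside the rule for named genes and was chosen after its value was seen. Without PRMT5-10770 or CTRL-10596 it was called, and without PRMT5-10618 Cd69 was called lower.

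**Figure D5:**
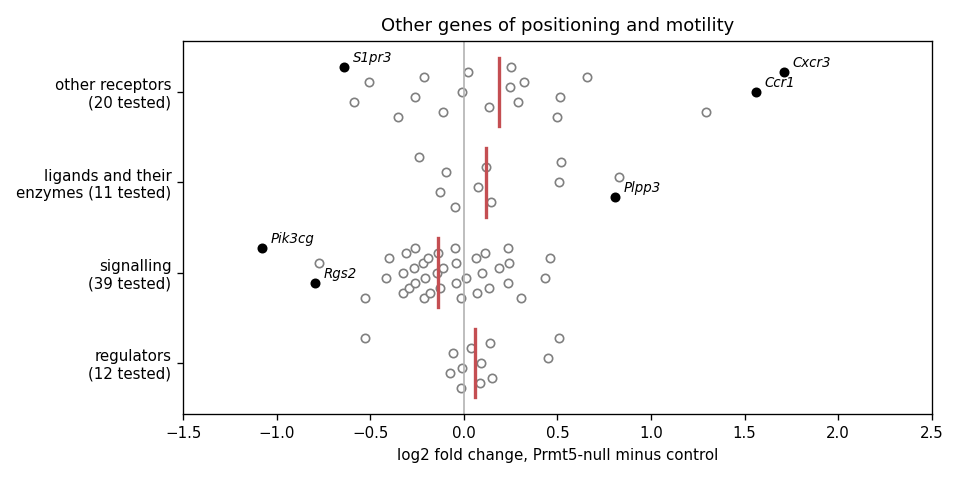
Log2 fold change (x axis, Prmt5-null minus control) of the tested genes of the 4 lists, 1 point a gene, filled and named where called, with a red bar at the median of each list (points are spread vertically only to keep them apart). The called receptors Cxcr3 (1.71) and Ccr1 (1.56) lie furthest right, Pik3cg (-1.08) lies furthest left, and the median of the signaling list is -0.14.

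Splicing was read from the events that the authors deposited after their own filters. Inclusion levels, the share of transcripts that hold an exon or intron, came as paired lists of 4 values that name neither library nor genotype. The first list was read as control and the second as Prmt5-null, from a caption of the study that puts wild type before knockout. None of the 9 members was among the 1519 genes with a deposited event, which make up 11.4% of genes with a mean above 50, so neither the Gcsam nor the S1pr2 difference came with an event that passed those filters. The longest annotated transcripts of Cxcr4, Gpr183, S1pr1 and S1pr2 have 2 exons and that of S1pr4 has 1. Those of Ccr7, Cxcr5, Gcsam and Ccr6 have 3, 4, 5 and 6. Genes with 1 or 2 exons leave little room for an event, so its absence says little about those members. Whether exon number bears on the absence of an event in any member was not tested. Among the signaling genes 8 of 37 with a mean above 50, or 21.6%, carried one, with 10 events in all. Gnai2, which encodes the inhibitory Gα subunit that most chemokine receptors use, had an alternative 3′ splice site with an inclusion level of 0.658 to 0.697 in control and 0.763 to 0.805 in Prmt5-null libraries. An exon of Gnas, which encodes the stimulatory Gα subunit, was included at 0.743 to 0.795 in control and 0.535 to 0.640 in Prmt5-null libraries. An intron of Arrb2, which encodes a β-arrestin that takes receptors from the surface, was retained at 0.055 to 0.093 in control and 0.180 to 0.225 in Prmt5-null libraries. In the receptor lists only Gpr174, a lysophosphatidylserine receptor of B cells, had an event, an exon at 0.858 to 0.968 in control and 0.680 to 0.836 in Prmt5-null libraries. These 4 events were chosen after they were seen, among those whose levels did not overlap, and the events were deposited because they differed, so no test is given.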

How the data were processed

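RNA-seq of 4 Prmt5-null and 4 control iGB cultures, each from 1 mouse, was used. Per the labels' processing notes and the study's methods, the authors trimmed reads (Trimmomatic 0.32), aligned them to mm10, the GRCm38 build (STAR 2.3.0e), counted them on Ensembl exons (featureCounts 1.4.4) and deposited a normalized signal, the count divided by the DESeq2 1.14.1 size factor. The strand setting is not given in the sources used here. All values were whole multiples of 1 read (100% in each library, tolerance 0.01 read), which gave 36731721 to 50366174 reads per library. Splicing came from the authors' deposited rMATS tables, of which only inclusion levels and read counts were used. Their p-value, FDR and difference columns were not.

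For the genotype comparison, limma 3.58.1 (R 4.3.3, eBayes with an intensity trend) was fitted to log2(normalized count + 1) of the 16250 genes with a mean of at least 10, with Benjamini-Hochberg adjustment over all of them. Such fold changes understate those of low genes. Called genes had an adjusted p under 0.05 and a fold of 1.5 or more. Single genes were also compared by the exact two-sided permutation test over the 70 assignments of 4 and 4 libraries. Alternatives included edgeR 4.0.16 and DESeq2 1.42.0 on recovered reads, other pseudocounts, filters, normalizations and libraries left out, and scripts were tested on simulated data. Cultures came from 2 experiments, but labels do not say which library belongs to which, so experiment entered only as an alternative, in each of 18 possible placements. The members and gene lists were chosen with earlier results of these data known. Genes named are the members, Prmt5, the called genes of each list (or the 3 highest), the 3 genes most like each called member, and some of the highest or first listed markers. Some markers are not reported here. Others are said to be chosen later. Positions and exon lengths are from GENCODE vM21, and promoters from RefSeq, whose table held 6 of the 9 members. Python 3.11.15 with pandas 2.3.3, NumPy 2.4.6, SciPy 1.17.1 and matplotlib 3.10.9 was used.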

Additional observations from a re-analysis of the deposited data

Results flagged for a closer look

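Within groups of 4 libraries, 2 values stood apart by Dixon's test at the 95% level. Cxcr4 in library CTRL-10370 had 3821 normalized counts, whereas the other 3 control libraries lay between 2951 and 3056 (ratio of the gap to the range 0.880). Gcsam in library PRMT5-10771 had 188.7 normalized counts, whereas the other 3 Prmt5-null libraries lay between 139.9 and 146.3 (ratio 0.868). Of 32 groups looked at, these were the only 2 found, and chance gives about 1 in 20. In both genes the value that stood apart lay toward the other genotype.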

How the results depend on the processing

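Gcsam was called lower in all 22 alternatives, and S1pr2 in 21. The log2 fold changes of Cxcr5, Ccr7, S1pr4 and Gpr183 kept their direction and remained uncalled in all 22. Some of these alternatives could not have turned a direction. The second principal component block, the experiment placements and no fold threshold left the log2 fold change of the main fit unchanged. Leaving out the fold threshold also cannot lose a call. With the summed fibroblast level as a covariate, chosen after the data were seen, 631 genes and 1 member were called, 0 signaling genes were, Plpp3 gave way to Spns2, S1pr2 was at -0.60, and S1pr1 turned to 0.76. With no fold threshold, 2249 genes, 5 of the other receptors, 9 signaling genes and 1 regulator passed, as did Cxcr4 (0.47). A mean above 50 left 1 of the other receptors called, no filter left 0 ligand genes, and limma without a trend left 0 signaling genes. In the lowest of the 18 placements of the experiments, 0 ligand genes and 1 signaling gene were called. With each library left out in turn, 795 to 1173 of all genes were called, 2 to 4 of the other receptors, 0 to 1 ligand genes, 0 to 2 signaling genes and 0 to 1 regulators. In these fits the log2 fold change of Ccr6 ran from -0.11 to 0.26 and that of S1pr1 from -0.35 to 0.16, both across 0, whereas that of S1pr2 ran from -0.78 to -0.60. With the longest transcript as gene length, 7 genes kept their rank by level. The causes of these shifts were not tested. No paired analysis was possible because each replicate number belongs to 1 mouse of 1 genotype.

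The 4 mice per genotype limit what can be seen. Libraries differed by 1.69-fold or more within a genotype for Ccr6, whose 95% interval took in a 1.5-fold rise, and S1pr1, whose interval took in a 1.5-fold fall. The SE of Ccr6 was 0.28, and 0.098 in the placement of the experiments with the lowest p for it. The experiment cannot be told apart from other differences between libraries, since no label gives it. RNA levels are not surface receptor, and no gene was measured per cell. Depth did not limit the members, since each had a mean of at least 154 normalized counts in either genotype.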
